A study of Mus musculus with 4 samples.

Results

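The Wnt list comprised the genes of the mouse annotation that encode Wnt ligands, R-spondins, Frizzled receptors, the co-receptors Lrp5 and Lrp6, the R-spondin receptors Lgr4, Lgr5 and Lgr6, and the secreted inhibitors of the Sfrp and Dkk families. Its members were chosen by symbol alone, which gave 46 of the 32285 genes in the count matrices, namely 19 Wnt ligands, 4 R-spondins, 10 Frizzled receptors, 5 Lrp or Lgr receptors, 4 Sfrp genes and 4 Dkk genes. In the cells kept for analysis 38 members had at least 20 unique molecular identifiers (UMIs, each standing for 1 captured transcript), 6 had 1 to 19 (Dkk1, Dkk4, Wnt1, Wnt3, Wnt3a and Wnt9b), and 2 had none (Wnt7a and Wnt8a). Thyroids of wild-type C57BL/6 mice were taken at postnatal day 5, 10, 20 or 30, digested to single cells and profiled by 10x Genomics droplet sequencing of transcript 3′ ends. The tissue of 10 mice was pooled for each age, so every age had 1 library, no replicate and no mark of the single animal. Where 4 values are given, they belong in this order to the libraries labelled day 5, 10, 20 and 30.

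Wnt proteins are lipid-modified secreted ligands that bind Frizzled receptors. With Lrp5 or Lrp6 as co-receptor this stabilizes β-catenin, which then acts with TCF and LEF factors on target genes, while other ligand and receptor pairs act on the cytoskeleton without β-catenin. R-spondins bind Lgr receptors and keep Frizzled receptors at the cell surface, Sfrp proteins bind Wnt ligands outside the cell, and most Dkk proteins bind Lrp5 and Lrp6. In the thyroid, follicular cells (thyrocytes, TFC) make thyroid hormone and lie beside calcitonin-producing C cells, a dense capillary net and fibroblasts.

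The libraries held 54921806 to 89039113 UMIs, and 29661 of 37503 listed cells were kept, with median UMI counts of 3025 to 7056 per cell and library. Cells fell into 37 clusters, of which 3 with 1649 cells stayed unnamed, and clusters took class names from marker genes. No member of the Wnt list was among the variable genes that set the clusters or among the markers, so the classes were set without the members. The other pathway genes set beside the members further below were not kept out of the variable genes. TFC-like cells (2383, 515, 304 and 536 cells) had UMIs of all 10 follicular markers in every library, at 39024 to 73121 CPM together, where CPM are counts scaled to the total UMIs of the class and library. Fibroblast-like cells (1563, 1057, 391 and 752 cells) had 32368 to 59867 CPM of 6 fibroblast markers, and endothelial-like cells (4289, 1367, 472 and 664 cells) had 15423 to 16752 CPM of 8 endothelial markers. TFC-like cells had 31.1 to 111 CPM of the fibroblast and fibroblast-like cells 218 to 1802 CPM of the follicular markers. The age labels were set beside the data. The genes H19, Igf2 and Dlk1, which are abundant before birth and fall afterwards in most tissues, were looked at in fibroblast-like cells. H19 was at 61.3, 818, 123 and 2887 CPM, Igf2 at 18.4, 219, 37.6 and 927 CPM and Dlk1 at 38.6, 139, 44.6 and 596 CPM. Their lowest level was in the library labelled day 5 and the highest in that labelled day 30. The libraries kept 13023, 5663, 6155 and 4820 cells, most of them in that labelled day 5 and fewest in that labelled day 30, whereas the cell numbers stated for the study are larger at day 30 than at day 5. In the deposited list of cells the barcodes of the libraries labelled day 5, 10, 20 and 30 ended in 4, 2, 3 and 1. The follicular transcription factor Pax8 was at 253, 321, 342 and 436 CPM in TFC-like cells, and Nkx2-1 and Foxe1 were also lowest there in the library labelled day 5 and highest in that labelled day 30. Ages are given as labelled throughout, an exchange of the labels day 5 and day 30 was not tested, and the order of the libraries in age was not settled. Barcodes were shared between matrices. Those of cells labelled day 10, 20 or 30 turned up with a few UMIs in both of the other matrices of this trio in 99.0% to 99.7% of cases. Between them and the library labelled day 5, 45.6% to 59.6% of barcodes were shared, counted in either direction. Levels in droplets with 10 to 100 UMIs, which hold free RNA, are given beside the low values.

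Different members stood highest in different classes. Lymphatic endothelial-like cells, which had at least 20 cells in 1 library only, are left out here and wherever class means of members are compared. Over all 78 of these cells Fzd6 stood at 161 CPM, above its mean of 58.9 CPM in TFC-like cells. By mean CPM over the libraries in which a class had at least 20 cells, 15 of the 38 members with at least 20 UMIs were highest in fibroblast-like cells, 5 in nerve-like cells, and 5 in TFC-like cells (Wnt4, Lgr4, Fzd5, Fzd6 and Fzd7). Another 3 were highest in T-like cells, 2 each in endothelial-, stromal-, C cell- and parathyroid-like cells, and 1 each in B- and dendritic-like cells. UMIs of all Wnt ligands together made up 264, 373, 326 and 375 CPM in TFC-like cells, 202, 243, 208 and 266 CPM in fibroblast-like cells and 8.64, 11.3, 12.02 and 7.65 CPM in endothelial-like cells. Frizzled receptors summed to 301, 449, 419 and 512 CPM in fibroblast-like, 283, 331, 424 and 340.1 CPM in endothelial-like and 175, 259, 250.2 and 272 CPM in TFC-like cells. Of these 3 classes, TFC- and fibroblast-like cells thus held most of the ligand counts, while receptor counts were found in all 3.

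**Figure D1:**
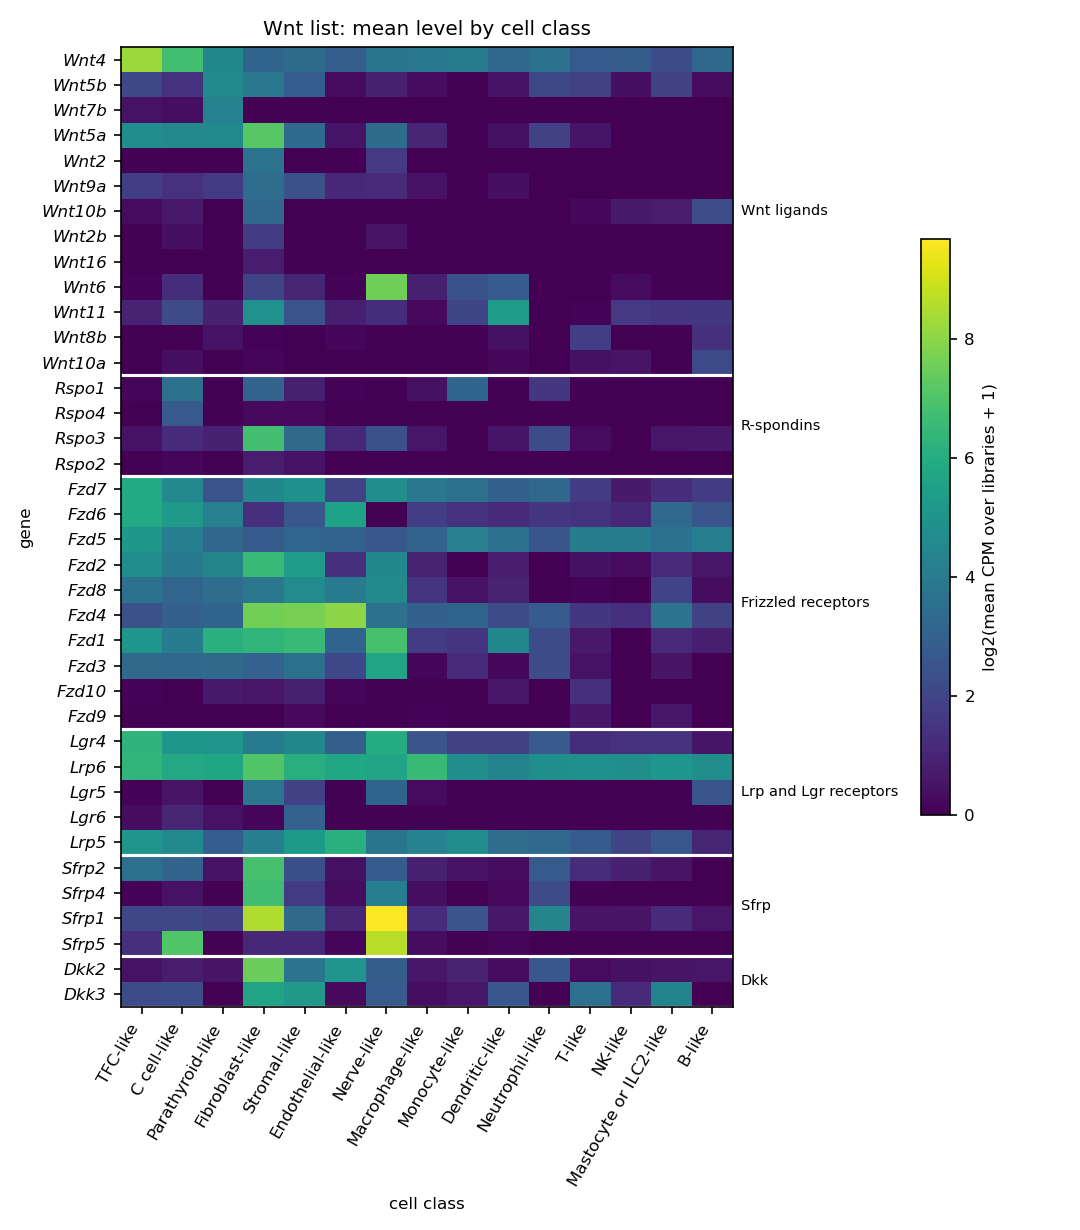
Mean level of the 38 members with at least 20 UMIs (rows, grouped by role) in each cell class (columns), as log2 of the mean CPM over the libraries plus 1. Wnt4 is brightest in TFC-like cells (mean 301 CPM), Sfrp1 and Sfrp5 in nerve-like cells (824 and 403 CPM) and Fzd4 in endothelial-, stromal- and fibroblast-like cells (258, 205 and 199 CPM).

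The promoters of 4 members whose levels are described at length are shown, Wnt4 for TFC-like cells, Fzd4 for endothelial-, stromal- and fibroblast-like cells, Dkk2 for fibroblast-like and arterial marker-bearing endothelial cells, and Wnt10b for adventitial fibroblasts. The sequences lie within the 250 bases before the RefSeq start on GRCm38.p6, without the bases that GENCODE assigns to an exon, and are written 5′ to 3′ on the gene's strand, with capitals for GC boxes (GGGCGG on either strand, overlaps counted).
Wnt4, chr4:137277385-137277488, plus strand: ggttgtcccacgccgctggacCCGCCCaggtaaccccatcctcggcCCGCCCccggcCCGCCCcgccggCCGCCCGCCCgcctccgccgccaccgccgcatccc
Fzd4, chr7:89404223-89404354, plus strand: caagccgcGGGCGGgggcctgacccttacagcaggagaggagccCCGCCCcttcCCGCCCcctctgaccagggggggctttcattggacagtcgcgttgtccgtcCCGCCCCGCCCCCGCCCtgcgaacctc
Dkk2, chr3:132085042-132085291, plus strand: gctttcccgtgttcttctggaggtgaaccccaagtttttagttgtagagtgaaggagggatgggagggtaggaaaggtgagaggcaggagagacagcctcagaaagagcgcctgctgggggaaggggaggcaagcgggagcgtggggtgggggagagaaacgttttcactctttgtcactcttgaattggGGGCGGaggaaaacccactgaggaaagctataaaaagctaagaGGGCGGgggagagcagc
Wnt10b, chr15:98778151-98778400, minus strand: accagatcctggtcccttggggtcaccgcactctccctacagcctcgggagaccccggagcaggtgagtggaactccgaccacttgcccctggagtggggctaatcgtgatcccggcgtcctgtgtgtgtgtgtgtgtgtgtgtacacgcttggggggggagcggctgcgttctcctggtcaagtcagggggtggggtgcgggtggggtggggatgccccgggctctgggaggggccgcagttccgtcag
The 104 bases shown for Wnt4 held 5 GC boxes at a GC content of 83.7%, the 132 bases for Fzd4 held 6 at 73.5%, the 250 bases for Dkk2 held 2 at 55.6% and those for Wnt10b held 0 at 66.8%. A promoter sequence was matched for 29 of the 46 members, and 21 of these 29 (72.4%) had a GC box in the 250 bases before a start against 32.7% of all 32851 promoters. A member counted if any of its starts had the letters, whereas all promoters were counted singly. The shares of members and of all promoters are thus unlike measures, also for the motifs that follow. The TCF/LEF core letters CTTTGA were found in 4 of the 29 (Dkk1, Fzd1, Wnt11 and Wnt5b) against 13.8% of all promoters. The NKX2 letters CACTTNA, the class of motif bound by the thyroid factor Nkx2-1, were found in 2 of the 29 (Sfrp5 and Wnt8b) against 10.1% of all promoters. Neither was found in the 4 sequences shown. These matches describe letters in a window and say nothing of binding.

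Among the Wnt ligands, Wnt4 was the one counted most in follicular cells. Wnt4 (chromosome 4, 137277489 to 137299726, plus strand, all positions in GRCm38 from GENCODE vM21), known for its part in kidney and female reproductive tract development, was counted at 243, 328, 305 and 328 CPM in TFC-like cells and at 116, 106, 101 and 106 CPM in C cell-like cells. All 4 TFC values lay above all 4 C cell values, and both lay above those of fibroblast-like cells (16.2, 4.82, 5.96 and 3.99 CPM) and endothelial-like cells (6.88, 6.87, 9.19 and 3.83 CPM). Droplets with free RNA carried Wnt4 at 82.01, 45.7, 70.9 and 66.4 CPM. This is more than fibroblast-, endothelial- or macrophage-like cells had in any library, and the part of free RNA in the Wnt4 of these classes was not tested. Against the mean of the other classes on the log scale, with the 4 libraries as replicates, Wnt4 was higher in TFC-like cells (log2 fold change 4.62 ± 0.22 SE, adjusted p = 2.5e-23) and in C cell-like cells (log2 fold change 3.02 ± 0.27 SE, adjusted p = 1.7e-13). In this contrast, used for all class tests below, the size of a fold change rests in part on the small count that edgeR adds wherever a further class had no UMI of the gene. The SE was computed from the fold change and the F statistic of the test, so it rests on that count too. Such a class was found for 16 of the 25 members tested, and not for Wnt4, Fzd4, Fzd5, Fzd7, Lgr4, Lrp5, Lrp6, Sfrp1 and Dkk2. The C cell-like contrast was added after its values were seen, so its p-values are given as a description only. C cell-like cells also carried follicular markers. The 10 TFC markers with Tg, the most abundant, summed to 16451 to 26329 CPM in C cell-like and 39024 to 73121 CPM in TFC-like cells. Without Tg they summed to 2782 to 3525 CPM in C cell-like and 3754 to 4169 CPM in TFC-like cells. The part of follicular RNA in the C cell value of Wnt4 was not tested.

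Wnt4 was widespread among follicular cells. After thinning every cell to 2000 UMIs, the share of TFC-like cells with a Wnt4 UMI was 35.3, 42.6, 46.8 and 42.9%, against 2.50, 0.77, 2.61 and 0.68% of fibroblast-like and 2.90, 1.97, 2.75 and 0.86% of macrophage-like cells. Without thinning the shares in TFC-like cells were 78.4, 87.4, 93.8 and 91.6% at median depths of 8260, 12637, 15597 and 18220 UMIs per cell.

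Wnt5a, the usual ligand of the β-catenin-independent branch (chromosome 14, 28504750 to 28527448, plus strand), was mainly a fibroblast ligand. It reached 118, 156, 121 and 178 CPM in fibroblast-like cells, 17.01, 33.96, 16.3 and 36.1 CPM in TFC-like cells and 21.4, 22.8, 18.4 and 28.2 CPM in C cell-like cells, with 6.55, 8.38, 6.84 and 15.8 CPM in free RNA. The fibroblast values lay above all others and TFC and C cell values overlapped. Wnt5a was called higher in both fibroblast-like cells (log2 fold change 7.37 ± 0.22 SE, adjusted p = 3.8e-27) and TFC-like cells (log2 fold change 4.45 ± 0.30 SE, adjusted p = 6.3e-16), although its TFC values were a fraction of the fibroblast ones.

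Its close relative Wnt5b and the lung and bone ligand Wnt7b were highest in parathyroid-like cells, a small class of 45, 20, 33 and 29 cells. Wnt5b stood at 22.4, 21.6, 31.4 and 20.1 CPM there, at 7.03, 15.2, 13.8 and 16.7 CPM in fibroblast-like and at 1.42, 4.29, 1.81 and 5.54 CPM in TFC-like cells. Wnt7b stood at 10.3, 30.2, 17.3 and 17.6 CPM in parathyroid-like cells and at no more than 0.83 CPM in TFC-like cells. Both were called higher in parathyroid-like cells (adjusted p = 2.2e-12 and 3.2e-09). The parathyroid-like contrast was chosen after the values were seen, and Wnt7b could pass the filter on low counts only through this class, so its p-values are given as a description only. Both were also called higher in TFC-like cells (adjusted p = 0.022 and 0.0037), although the TFC levels overlapped those of free RNA (1.38 to 3.43 CPM for Wnt5b and 0 to 1.14 CPM for Wnt7b). Wnt5b was not called in TFC-like cells without the library labelled day 10 or 30 (log2 fold changes 1.14 and 1.01).

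Wnt6 was highest in the nerve-like cluster. It stood at 133, 229, 167 and 222 CPM in nerve-like cells, at 1.58 to 3.61 CPM in fibroblast-like cells and at 0 to 0.75 CPM in free RNA. Nerve-like cells overlapped with none of these (log2 fold change 8.96 ± 0.31 SE, adjusted p = 1.2e-24). Wnt6 passed the filter on low counts through the nerve-like class, with means of at most 5.94 CPM in any other, so its p-values are given as a description only. Wnt11, a ligand of convergent cell movements and of kidney branching, had its highest mean in dendritic-like cells (77.4, 32.9, 34.9 and 9.10 CPM) and the next in fibroblast-like cells (32.3, 22.8, 37.96 and 21.6 CPM), and the ranges of the classes overlapped. In fibroblast-like cells it was called higher (adjusted p = 1.9e-16). The remaining ligands with at least 20 UMIs were low, with mean levels of at most 11.8 CPM in any class. Wnt2, Wnt2b, Wnt9a, Wnt10b and Wnt16 were highest in fibroblast-like cells, Wnt8b in T-like cells and Wnt10a in B-like cells. Wnt8b in T-like cells came chiefly from a cluster with the thymocyte genes Rag1 and Cd8b1 among its leading genes, in the libraries labelled day 20 and 30 (18.4 and 5.14 CPM).

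**Figure D2:**
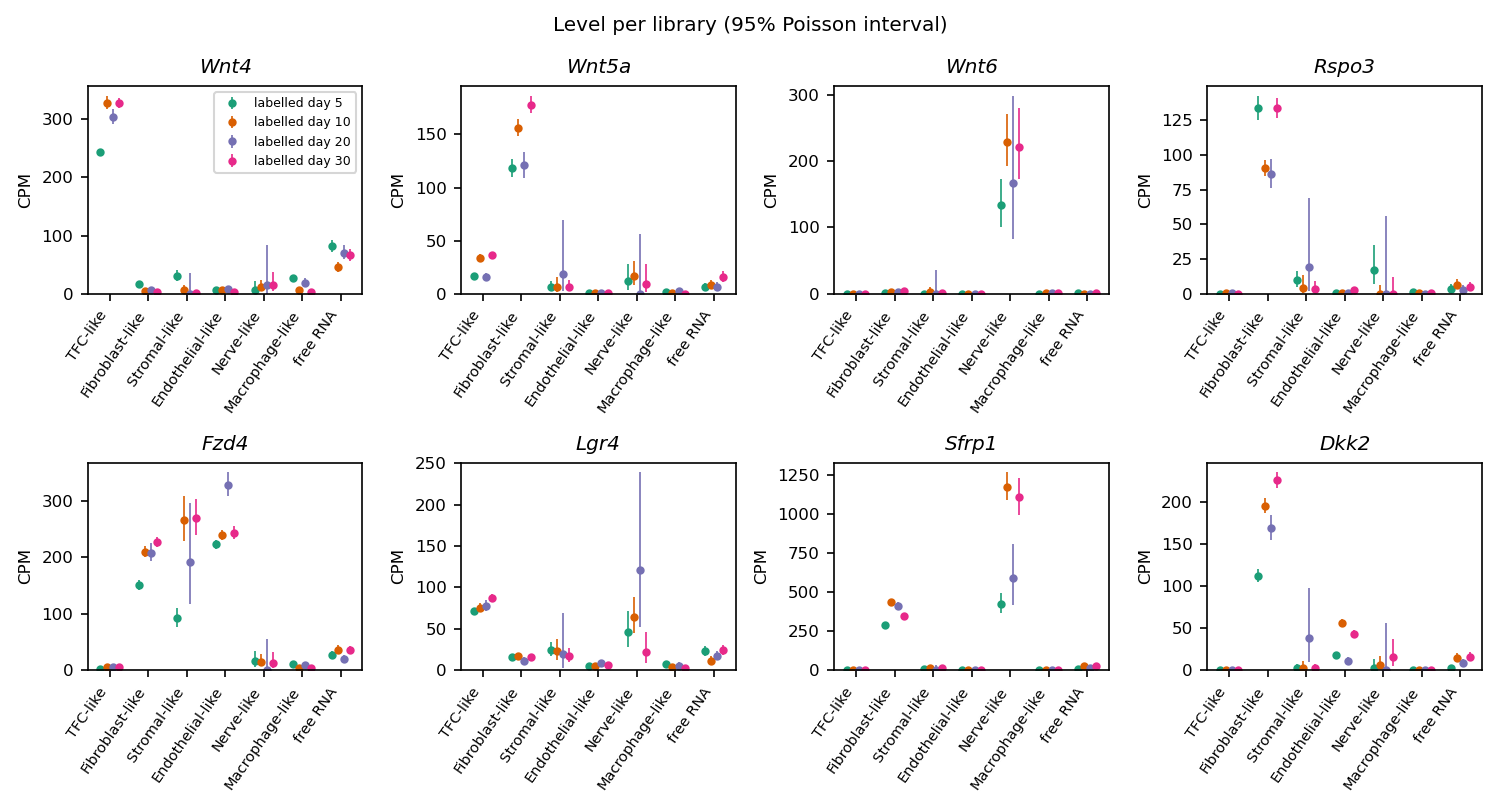
Level (CPM, vertical axes) of 8 members in 6 cell classes and in free RNA, 1 point per library as labelled, with exact 95% Poisson intervals for counting error. Wnt4 lies at 243 to 328 CPM in TFC-like cells and Dkk2 at 112 to 226 CPM in fibroblast-like cells in every library, and the intervals of nerve-like cells are widest for the library labelled day 20.

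The R-spondins were found mainly in fibroblast- and C cell-like cells. Rspo3, a ligand known from vascular and intestinal niches (chromosome 10, 29452416 to 29535867, minus strand), stood at 134, 90.5, 85.96 and 134 CPM in fibroblast-like cells. This compares with 0.12 to 0.91 CPM in TFC-like, 0.59 to 2.42 CPM in endothelial-like cells and 2.93 to 6.48 CPM in free RNA (log2 fold change 7.59 ± 0.28 SE, adjusted p = 4.9e-27). Every other class had a mean of at most 9.29 CPM and Rspo3 passed the filter on low counts chiefly through fibroblast-like cells, so its p-value is given as a description only. Rspo1 was lower and was found in C cell-like cells at 6.68, 8.14, 15.95 and 12.4 CPM and in fibroblast-like cells at 9.76, 7.38, 7.53 and 5.13 CPM, with a mean of 7.75 CPM in monocyte-like cells. Rspo4 was found in C cell-like cells at 3.12, 3.80, 4.91 and 10.2 CPM and had no more than 0.31 CPM in fibroblast-like cells. Rspo2 reached 0.29, 0.49, 0.94 and 1.04 CPM in fibroblast-like cells, and none of its UMIs was found in TFC-like cells. Rspo1, Rspo2 and Rspo4 were too low over all classes to enter the test.

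Of the Frizzled receptors, Fzd4 reached the highest counts. Fzd4, the receptor of norrin in retinal vessels (chromosome 7, 89404355 to 89413134, plus strand), stood at 223, 239, 328 and 243 CPM in endothelial-like, 92.3, 266, 191 and 270.2 CPM in stromal-like (Acta2, Rgs5) and 150.4, 209.9, 208 and 226 CPM in fibroblast-like cells. These ranges overlapped, and all lay above TFC-like cells, where Fzd4 was at 1.77, 5.14, 5.14 and 5.10 CPM, below free RNA (27.2, 36.6, 20.5 and 35.3 CPM). Fzd4 was called higher in endothelial-like cells (log2 fold change 4.72 ± 0.22 SE, adjusted p = 1.0e-24), fibroblast-like cells (adjusted p = 7.2e-24) and stromal-like cells (adjusted p = 2.6e-19). It was called lower in TFC-like cells (log2 fold change -1.68 ± 0.36 SE, adjusted p = 7.7e-05), a call that was lost without the library labelled day 5 (log2 fold change -0.73).

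TFC-like cells carried a different set of Frizzled receptors. Fzd7 stood at 44.6, 60, 64.6 and 71.6 CPM in TFC-like cells, and its values in fibroblast-like (18.99 to 27.3 CPM) and endothelial-like cells (2.34 to 3.81 CPM) were lower without overlap. Fzd6, a receptor of planar cell polarity, was at 47.02, 62.9, 71.8 and 54.04 CPM in TFC-like cells and at 32.4, 54.4, 48.4 and 57.4 CPM in endothelial-like cells, which overlap. Fibroblast-like cells had 1.23 to 2.01 CPM of Fzd6, and nerve-like cells had no Fzd6 UMI in any library, where 3 counts would be 5.09 to 45.5 CPM. Fzd5, which acts in eye and gut epithelia, was at 23.9, 41.9, 37.5 and 38.05 CPM in TFC-like cells and at 2.66 to 9.73 CPM in fibroblast-like cells. Each of the 3 was called higher in TFC-like cells, with log2 fold changes of 2.96 ± 0.20 SE for Fzd7 (adjusted p = 1.0e-17), 4.01 ± 0.25 SE for Fzd6 (adjusted p = 1.3e-18) and 1.61 ± 0.18 SE for Fzd5 (adjusted p = 7.6e-11).

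Fzd1 and Fzd2 were shared by mesenchymal, nerve and epithelial classes. Fzd2 was at 56.99, 104, 63.1 and 139 CPM in fibroblast-like, 28.7 to 47.2 CPM in stromal-like and 11.9, 28.2, 27.7 and 38.6 CPM in TFC-like cells, and the fibroblast values lay above both others. Fzd1 was at 89.7, 146, 136 and 90 CPM in nerve-like, 64.5, 82.2, 134 and 86.3 CPM in stromal-like, 47.2, 86.6, 91.6 and 96.3 CPM in fibroblast-like, 51.7, 60.4, 69.1 and 97.97 CPM in parathyroid-like and 25.9, 41.7, 21.3 and 42.5 CPM in TFC-like cells. The first 4 of these classes overlapped, and only the TFC values lay below all of them. Fzd3, which guides growing axons, was at 70.3, 28.8, 60.6 and 38.6 CPM in nerve-like and 10.4, 9.11, 7.56 and 9.62 CPM in TFC-like cells. Fzd8 was at 9.66, 10.1, 14.5 and 12.7 CPM in TFC-like, 15.8 to 38.3 CPM in stromal-like and 15.2 to 32.1 CPM in nerve-like cells. All 4 were called higher in TFC-like cells (log2 fold changes of 2.30 for Fzd1, 3.59 for Fzd2, 2.62 for Fzd3 and 2.61 for Fzd8, with adjusted p from 2.0e-17 to 7.0e-09). Lymphatic endothelial-like cells, 78 cells in all, had 20 or more cells in 1 library and were not tested. They carried Fzd6 at 141 CPM in the library labelled day 5. Fzd9 and Fzd10 had mean levels of at most 1.48 CPM in any class.

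The co-receptor Lrp6 lay above free RNA in fibroblast-, TFC-, endothelial- and macrophage-like cells. Lrp6 was at 112, 135, 149 and 132 CPM in fibroblast-like, 70.8, 86.8, 78.8 and 85.7 CPM in TFC-like, 56.4, 56.7, 45.96 and 55.6 CPM in endothelial-like and 46.5, 130.5, 87.6 and 109 CPM in macrophage-like cells, with 28.2 to 36.01 CPM in free RNA. Fibroblast values were above all TFC and endothelial values, and macrophage values overlapped with those of the other classes. Lrp5 was at 60.9, 61.5, 102 and 59.4 CPM in endothelial-like and 22.2, 32.9, 31.1 and 42.6 CPM in TFC-like cells. The co-receptor of Fzd4 in vessels thus stood higher in endothelial-like cells without overlap (log2 fold change 2.57 ± 0.15 SE, adjusted p = 3.2e-20 against the mean of the other classes). In TFC-like cells Lrp6 (log2 fold change 0.68 ± 0.13 SE, adjusted p = 1.7e-05) and Lrp5 (adjusted p = 2.6e-09) were called higher as well.

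Lgr4, the widely used R-spondin receptor (chromosome 2, 109917647 to 110014257, plus strand), was highest in TFC-like cells by mean, at 71.1, 75.7, 77.9 and 86.99 CPM. This compares with 11.3 to 16.8 CPM in fibroblast-like, 5.05 to 8.49 CPM in endothelial-like cells and 11.8 to 24 CPM in free RNA (log2 fold change 3.52 ± 0.20 SE, adjusted p = 1.1e-20). Nerve-like cells spanned 22.5 to 121 CPM and overlapped the TFC values. Lgr5, the stem cell marker of gut and hair follicle, was at 20.96, 9.94, 9.10 and 11.7 CPM in fibroblast-like cells and at no more than 0.13 CPM in TFC-like cells. Lgr6 was found at 6.002, 6.09, 9.57 and 7.43 CPM in stromal-like cells and at no more than 2.26 CPM in C cell-like cells. The ligand Rspo3 and the receptor Lgr4 thus stood highest in different classes, Rspo3 in fibroblast-like and Lgr4 in TFC-like cells.

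The Sfrp inhibitors were genes of fibroblast-, nerve- and C cell-like cells. Sfrp1 (chromosome 8, 23411502 to 23449632, plus strand) was at 427, 1174, 591 and 1106 CPM in nerve-like and 287, 434, 414 and 347 CPM in fibroblast-like cells, which overlap by 1 library. TFC-like cells had 1.66 to 4.29 CPM, below free RNA (8.96 to 30.5 CPM). Sfrp5 was at 376, 475, 455 and 309 CPM in nerve-like and 162, 131, 110.4 and 121 CPM in C cell-like cells, and every other class had a mean of at most 1.55 CPM. It was called higher in both (log2 fold change 10.70 ± 0.35 SE, adjusted p = 2.2e-21 in nerve-like cells, adjusted p = 1.6e-19 in C cell-like cells). Sfrp5 passed the filter on low counts through these 2 classes, so its p-values are given as a description only. Sfrp2 was at 76.1, 189, 90.98 and 108 CPM and Sfrp4 at 80.2, 173, 47.1 and 113 CPM in fibroblast-like cells. In TFC-like cells Sfrp2 (14.9, 6.64, 12.1 and 10.6 CPM) and Sfrp5 (1.96, 1.93, 1.36 and 0.96 CPM) were called higher than the mean of the other classes (adjusted p = 1.6e-07 and 0.012). These levels overlapped those of free RNA for Sfrp2 (5.87 to 13.3 CPM) and lay at or below it for Sfrp5 (1.96 to 5.33 CPM). The call of Sfrp5 in TFC-like cells was lost without the library labelled day 20 (log2 fold change 2.35).

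The nerve-like class is 1 cluster of 344 cells (181, 108, 24 and 31 cells) with the collagens Col3a1 and Col1a2 among its first 10 leading genes. The 6 fibroblast markers together were at 4273 to 16134 CPM in nerve-like cells and at 32368 to 59867 CPM in fibroblast-like cells. Dkk2, Sfrp2 and Rspo3, which fibroblast-like cells have, were at means of 6.32, 6.03 and 4.24 CPM in nerve-like cells against 176, 116 and 111 CPM in fibroblast-like cells. Other members highest in fibroblast-like cells were closer, with Sfrp4, Fzd2, Dkk3 and Lgr5 at means of 16.98, 21.9, 5.91 and 7.79 CPM in nerve-like cells against 103, 90.6, 49.4 and 12.9 CPM. The part of fibroblast RNA in the nerve-like levels was not tested. Sfrp5 was at a mean of 1.10 CPM in fibroblast-like cells, and Wnt6, at 1.58 to 3.61 CPM, was among the members called higher there (log2 fold change 2.90 ± 0.49 SE, adjusted p = 3.7e-06).

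Of the Dkk inhibitors, Dkk2 was found in fibroblast- and endothelial-like cells and Dkk3 in fibroblast- and stromal-like cells. Dkk2 (chromosome 3, 132085292 to 132180304, plus strand) was at 112, 195, 169 and 226 CPM in fibroblast-like, 18.1, 55.7, 11.3 and 43.2 CPM in endothelial-like and 0.15 to 0.64 CPM in TFC-like cells, with 2.76, 14.9, 8.31 and 16.1 CPM in free RNA. The fibroblast values lay above all endothelial values. Dkk2 was called higher in fibroblast-like (log2 fold change 7.18 ± 0.20 SE, adjusted p = 1.5e-33) and endothelial-like cells (log2 fold change 4.26 ± 0.25 SE, adjusted p = 1.1e-20) and lower in TFC-like cells (adjusted p = 1.6e-04). That lower call was lost without any 1 of the libraries labelled day 5, 10 and 30 (log2 fold changes -1.72, -1.91 and -1.98). Dkk3, a divergent family member, was at 29, 54.2, 56.2 and 58.4 CPM in fibroblast-like and 29.3, 45.7, 28.7 and 45.5 CPM in stromal-like cells, which overlap. Dkk1 and Dkk4 were rarely counted.

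Counted over the list, most tested members were called above the mean of the other classes in TFC-like and fibroblast-like cells. The edgeR quasi-likelihood test compared UMI sums of each class and library with the mean of the other classes on the log scale, with library as block and Benjamini-Hochberg adjustment over 13333 genes, and a call needs an adjusted p under 0.05. It covered 25 of the 46 members, those that passed a filter on low counts, and a member that passed only through the class where it is high had to differ, so these counts describe the list and do not support it. In TFC-like cells 16 members were called higher, against 35.2% of all genes tested, and 2 lower (Dkk2 and Fzd4), against 19.1%. Those called higher were 4 ligands (Wnt4, Wnt5a, Wnt5b and Wnt7b), 7 Frizzled receptors, Lgr4, Lrp5, Lrp6, Sfrp2 and Sfrp5. In fibroblast-like cells 20 were called higher (all genes 36.3%) and 2 lower, Wnt4 and Fzd5 (all genes 16.5%). Without the library labelled day 5 no member was called lower in TFC-like cells, and 1 was without that labelled day 10 or 30. Without the library labelled day 10 only Fzd5 was called lower in fibroblast-like cells (Wnt4 log2 fold change -0.996). With doublets kept the fold change of Wnt4 in fibroblast-like cells changed its sign.

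In endothelial-like cells 6 were called higher (Dkk2, Fzd3, Fzd4, Fzd6, Fzd8 and Lrp5, all genes 32.4%) and 4 lower (Fzd5, Fzd7, Sfrp1 and Wnt4, all genes 15.2%), and no ligand was called higher. Without the library labelled day 5 or 10 the lower calls were 2, and Fzd3 was not called higher without that labelled day 10, 20 or 30 (log2 fold changes 0.83, 1.10 and 0.68). After integration of the libraries with Seurat the fold change of Wnt4 in endothelial-like cells changed its sign. In stromal-like cells 13 were called higher (all genes 25.1%) and none lower (all genes 14.9%), with 6 Frizzled receptors among the higher calls. At an unadjusted p under 0.05 edgeR had 1 lower member in stromal-like cells and DESeq2 called 0 after adjustment, and without the library labelled day 5 edgeR called 2, without that labelled day 20 it called 1. The calls in nerve-like cells were 13 higher and 2 lower (all genes 21.4% and 15.2%), those in macrophage-like cells 3 and 2 (26.8% and 10.4%), and those in T-like cells 3 and 8 (36.2% and 17.2%). C cell- and parathyroid-like cells, whose contrasts were added after their values were seen, had 13 and 9 higher (30.9% and 20.2% of all genes) and 0 lower (19.1% and 16.8%, with 2 and 0 lower members at an unadjusted p under 0.05 by edgeR). In T-like cells the 3 higher calls (Dkk3, Wnt5b and Fzd5) were genes at means of 10.6, 2.55 and 15.8 CPM. A gene with no UMI in some other class can hardly be called lower by this contrast, which held for 16 of the 25 members, so counts of lower calls are low by construction. By DESeq2, which gives such genes a finite estimate, 14 members were lower in endothelial-like and 6 in TFC-like cells.

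Adventitial fibroblasts (the cluster chosen for its level of Pi16 and Dpp4, which are known from adventitial cells) carried ligands that the other fibroblast-like cells had little of. The adventitial cluster held 109, 158, 34 and 82 cells. Wnt10b, a ligand known to hold back fat cell formation (chromosome 15, 98770712 to 98778150, minus strand), was at 58.6, 52.1, 69.6 and 58.4 CPM there and at 1.26, 2.28, 0.35 and 1.92 CPM in the other fibroblast-like cells. Wnt2 was at 31.8, 42.8, 17.4 and 93.2 CPM against 4.55, 8.63, 2.46 and 12.8 CPM. Neither gene's values overlapped between the 2 groups. With the 4 libraries as blocks both Wnt10b (log2 fold change 5.14 ± 0.26 SE, adjusted p = 1.2e-08) and Wnt2 (log2 fold change 2.73 ± 0.19 SE, adjusted p = 1.6e-07) were higher in the adventitial cluster. At their levels in the other cells Wnt10b and Wnt2 could pass the filter on low counts only through the adventitial cluster, where they are high, so both p-values are given as a description only. Wnt11 was at 68.6, 46.7, 55.1 and 61.9 CPM against 28.9, 17.6, 35.9 and 16.7 CPM (adjusted p = 8.1e-05), also without overlap.

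The other fibroblast-like cells were richer in Sfrp1 and Rspo3. Sfrp1 was at 56.9, 88.4, 102 and 74.9 CPM in adventitial and 309, 509.7, 452 and 380.1 CPM in the other cells (log2 fold change -2.33 ± 0.11 SE, adjusted p = 4.4e-09). Rspo3 was at 20.1, 21.96, 29 and 34.8 CPM against 144, 106, 92.9 and 146 CPM (log2 fold change -2.16 ± 0.16 SE, adjusted p = 3.3e-07). Lgr5 (log2 fold change -2.84 ± 0.54 SE, adjusted p = 0.0015), Dkk3 (log2 fold change -1.15 ± 0.21 SE, adjusted p = 0.0012), Fzd4, Fzd1, Lrp5, Lrp6 and Rspo1 were also lower in the adventitial cluster. Lgr5 passed the filter on low counts through the other fibroblast-like cells, so its p-value is likewise a description only. In all, 5 of 26 members tested were called higher (Wnt10b, Wnt2, Wnt11, Lgr4 and Sfrp4) and 9 lower, against 9.9% and 10.2% of the 10581 genes tested. Members that passed the filter on low counts only through the side where they are high had to differ. These counts therefore describe the list and do not support it. Wnt5a (log2 fold change 0.18 ± 0.12 SE, adjusted p = 0.38) and Dkk2 (log2 fold change 0.02 ± 0.12 SE, adjusted p = 0.97) did not pass the test. Without the library labelled day 30 the higher calls were 3, since Lgr4 (log2 fold change 0.80) and Sfrp4 (0.40) no longer passed. Of the lower calls, Lrp5 was lost without the library labelled day 5 or 30 (-0.85 and -0.90), Lrp6 without that labelled day 10 (-0.36) and Rspo1 without any 1 of the 4. Wnt10b, Wnt2, Wnt11, Sfrp1, Rspo3, Lgr5 and Dkk3 passed in each of these 4 runs.

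**Figure D3:**
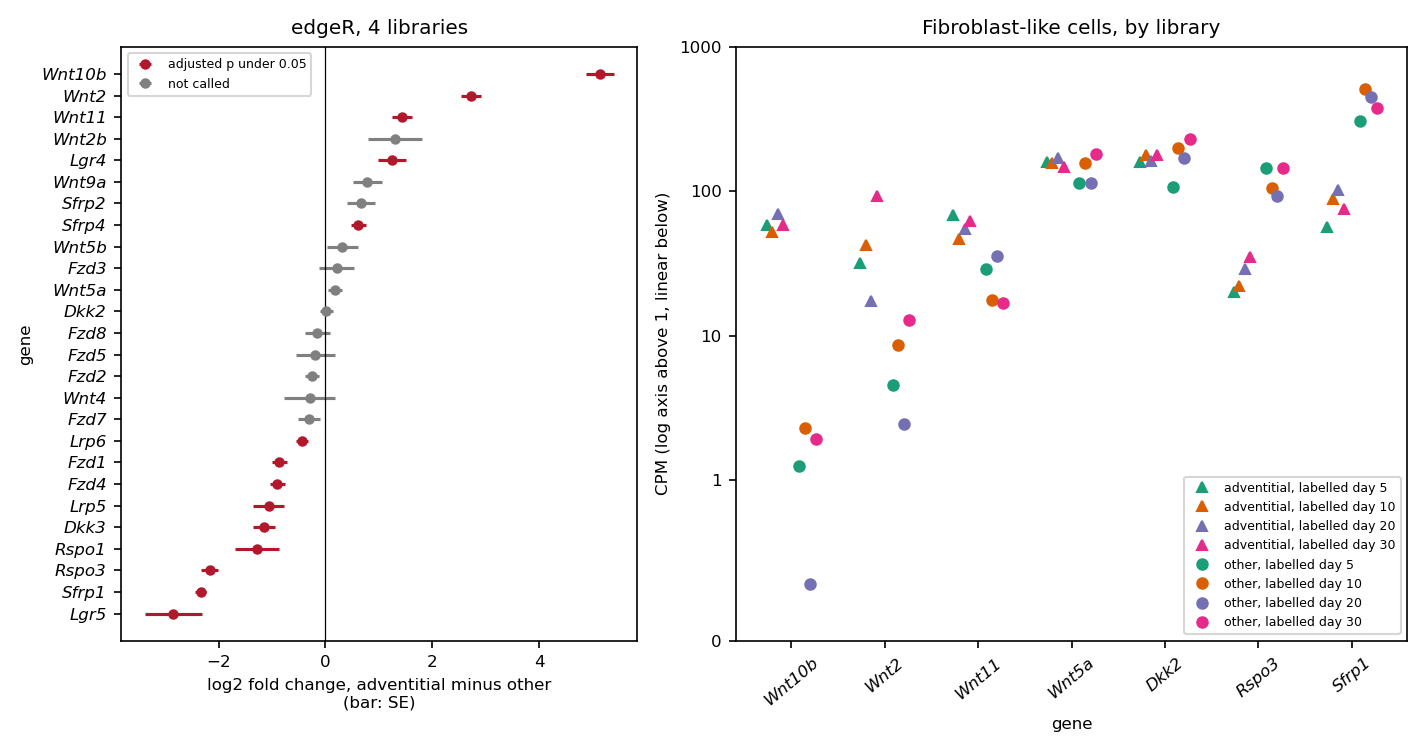
Left, log2 fold change (horizontal axis, bars are SE) of the 26 members tested between adventitial and other fibroblast-like cells, with those at an adjusted p under 0.05 in red. Right, CPM of 7 members in the adventitial (triangles) and the other (circles) cells of each library, on an axis that is logarithmic above 1, where Wnt10b is at 52.1 CPM or more in every adventitial sum and at 2.28 CPM or less in every other sum.

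The levels of some members differed between the clusters of a class. These clusters were named after their values were seen, and no test was made between clusters of a class. Dkk2 in endothelial-like cells had its highest level in the cluster with the leading genes Cldn5, Tm4sf1, Stmn2, Eln, Gja4 and Sox17, the last 2 known from arteries, where it was at 135, 393, 112 and 328 CPM. The other endothelial-like clusters had at most 73.6 CPM in any library. The cluster is small and held 352 Dkk2 UMIs, fewer than the 627 UMIs of the larger cluster with Esm1, Col4a1 and Kdr. Fzd6 was at 115, 147, 101 and 125 CPM in the first of these clusters, at 51.6, 103, 58.9 and 117 CPM in that with Fabp4, Aqp1 and Cavin2, which overlap, and at 10.1, 47.6, 38.1 and 53.1 CPM in that with Esm1, Col4a1 and Kdr. Wnt11 in dendritic-like cells lay in the cluster with Mgl2, Cd209a and Retnla, at 119.8, 100.3 and 97.8 CPM in the 3 libraries that had 20 or more of its cells (labelled day 5, 10 and 20). The cluster with Plbd1 and Cd83 had 18.6, 10.02, 7.17 and 4.24 CPM over the 4 libraries. The first of these clusters held 135, 58, 24 and 4 cells and the second 98, 174, 43 and 62 cells of the 4 libraries, and the class as a whole had its lowest Wnt11 level in the library labelled day 30.

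**Figure D4:**
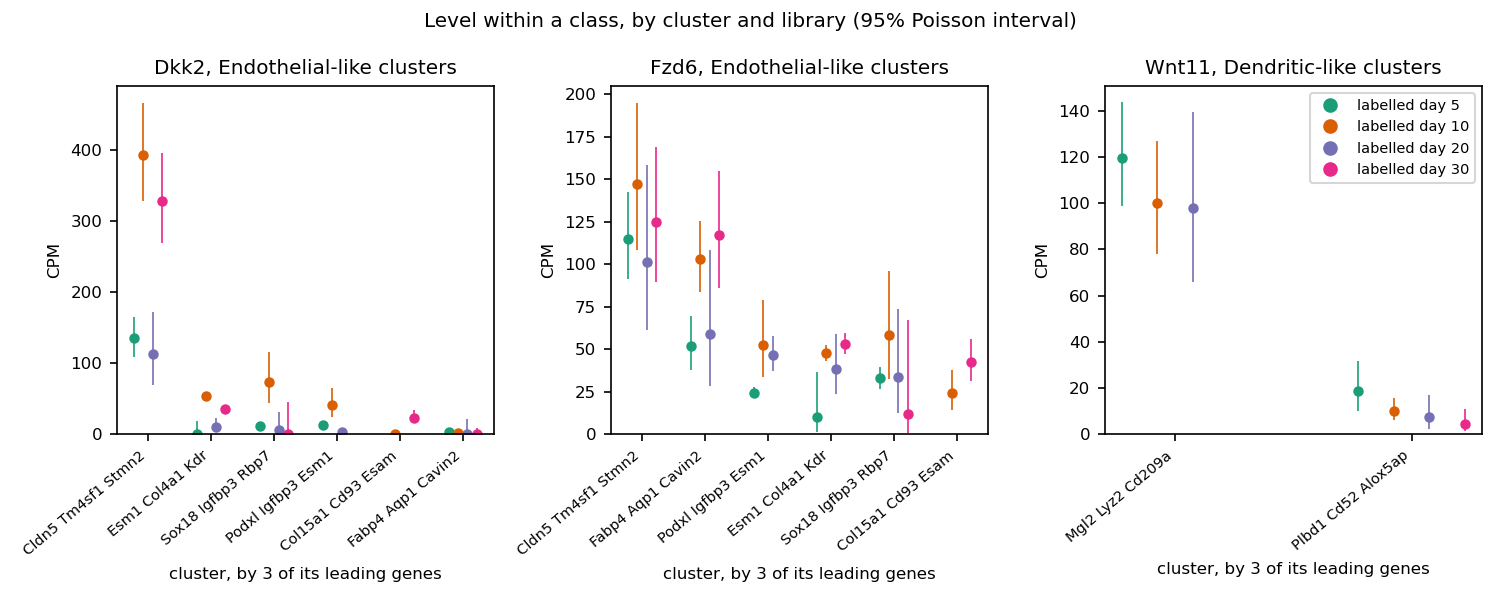
Level (CPM, vertical axes) of Dkk2 and Fzd6 in the endothelial-like clusters and of Wnt11 in the dendritic-like clusters, by library as labelled, with exact 95% Poisson intervals. Clusters are named on the horizontal axis by leading genes, and Dkk2 is highest in the Cldn5, Tm4sf1 and Stmn2 cluster in each library.

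Between the libraries labelled day 30 and day 5 most members differed by less than 2-fold in each class. Each age had 1 library, so no test was made and the intervals cover counting error only. As the order of the libraries in age was not settled, the ratios give only the direction of the labels, and with these 2 labels exchanged every ratio changes its sign and members past 2-fold higher become lower. In TFC-like cells Wnt4, Lgr4 and Lrp6 had log2 ratios of 0.43 (95% counting interval 0.38 to 0.49), 0.29 (95% counting interval 0.19 to 0.39) and 0.27 (95% counting interval 0.17 to 0.38), beside a median of 0.31 over all genes of the class. Of 21 members with at least 20 UMIs in the 2 libraries together, 5 were past 2-fold higher in the library labelled day 30 (Wnt11, Wnt5b, Fzd2, Fzd4 and Wnt5a, all genes 13.2%) and 1 was past 2-fold lower (Sfrp5, all genes 2.53%). All 5 had a higher mean in fibroblast-like cells. In TFC-like cells fibroblast markers summed to 31.1 and 74.1 CPM and endothelial markers to 73.8 and 134 CPM at the labels day 5 and 30. The part of these markers in the ratios was not tested. Fzd4 lay below free RNA in TFC-like cells, and Wnt11 rested on 3 and 20 UMIs. The 1843 genes higher and 353 lower of 13934 became 1088 and 724 when centred on the median, with 4 and 1 members. With the study's limit of 10000 UMIs per cell they were 1000 and 753 of 11521 genes, with 2 and 2 of 17 members. Fzd2 had a log2 ratio of 1.70 (95% counting interval 1.501 to 1.90) and Wnt5a one of 1.09 (95% counting interval 0.91 to 1.27). In the order of the labels Wnt5a was high in the libraries labelled day 10 and 30 and low in those labelled day 5 and 20 (17.01, 33.96, 16.3 and 36.1 CPM). Fzd2 was lowest at day 5, alike at day 10 and 20, and highest at day 30 (11.9, 28.2, 27.7 and 38.6 CPM).

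In fibroblast-like cells 7 of 29 members were past 2-fold higher in the library labelled day 30 (Wnt2, Fzd2, Wnt5b, Wnt6, Fzd1, Dkk2 and Dkk3, all genes 7.75%) and 3 past 2-fold lower (Sfrp5, Wnt4 and Fzd5, all genes 7.16%). The 3 lower ones were called higher in TFC-like cells, and the follicular markers summed over fibroblast-like cells were at 1802 CPM at the label day 5 (119 CPM without Tg) and at 218 CPM at the label day 30 (15.5 CPM without Tg), and their part in these ratios was not tested. Dkk2 had a log2 ratio of 1.01 (95% counting interval 0.89 to 1.13) and Wnt2 one of 1.63 (95% counting interval 1.19 to 2.13). The log2 ratio was 0.00 (95% counting interval -0.12 to 0.12) for Rspo3 and 0.27 (95% counting interval 0.19 to 0.35) for Sfrp1, beside a median of 0.10 over all genes. Centred on this median, 862 of 13025 genes were past 2-fold higher and 1062 lower, with 4 and 4 members. Without centring these were 1010 and 933 genes. The fibroblast clusters were not evenly shared between libraries. The cluster with Ccl11 and Dpep1 among its leading genes held 1291, 58, 292 and 12 cells and that with Ptn, Postn and H19 held 163, 841, 65 and 658 cells. Wnt2, Wnt5a, Fzd2, Sfrp2, Sfrp4 and Dkk2 were higher in both the libraries labelled day 10 and 30 than in those labelled day 5 and 20, as were H19, Igf2 and Dlk1. The part of these clusters in the ratios was not tested.

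Endothelial-like cells had 3 of 15 members past 2-fold higher in the library labelled day 30 (Rspo3, Fzd2 and Dkk2, all genes 9.0%) and none past 2-fold lower (all genes 5.58%). All 3 had their highest mean in fibroblast-like cells. Fibroblast markers in endothelial-like cells summed to 50.5 and 82.3 CPM at the labels day 5 and 30, and their part in the ratios was not tested. Rspo3 rested on 8 and 19 UMIs, below free RNA, and Fzd2 on 11 and 23 UMIs. With the limit of 10000 UMIs per cell 1 of 12 was higher and 1 lower, beside 779 and 833 of 11816 genes. Dkk2 had a log2 ratio of 1.26 (95% counting interval 1.02 to 1.5) and Fzd4 one of 0.12 (95% counting interval 0.04 to 0.21). Here too different clusters held most cells of the libraries, with 1709, 83, 229 and 2 cells in the cluster with Podxl, Igfbp3 and Esm1 and 44, 847, 62 and 473 cells in that with Esm1, Col4a1 and Kdr among the leading genes. Stromal-like cells had 3 of 15 higher (Wnt5b, Fzd4 and Sfrp1, all genes 12.3%) and 4 lower (Sfrp2, Wnt4, Fzd6 and Fzd5, all genes 7.85%), and Fzd4 had a log2 ratio of 1.55 (95% counting interval 1.24 to 1.87). The 95% counting intervals of Sfrp1 (-0.11 to 2.66) and Fzd5 (-2.75 to 0.32) had ends of opposite sign. Wnt5b rested on 3 UMIs at the label day 5 and 17 UMIs at the label day 30. The 4 lower ones were all called higher in TFC-like cells, and the 10 follicular markers together were at 8546 CPM in stromal-like cells of the library labelled day 5 (623 CPM without Tg) and at 260 CPM in those labelled day 30 (15.8 CPM without Tg). Their part in these ratios was not tested. Centred on the median of all genes, 0.19, 809 of 9631 genes were past 2-fold higher and 999 lower, with 2 and 4 members, where 1184 and 756 genes were without centring. Wnt4 in stromal-like cells of the library labelled day 5 was at 30.8 CPM, under the 82.01 CPM of free RNA of that library.

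**Figure D5:**
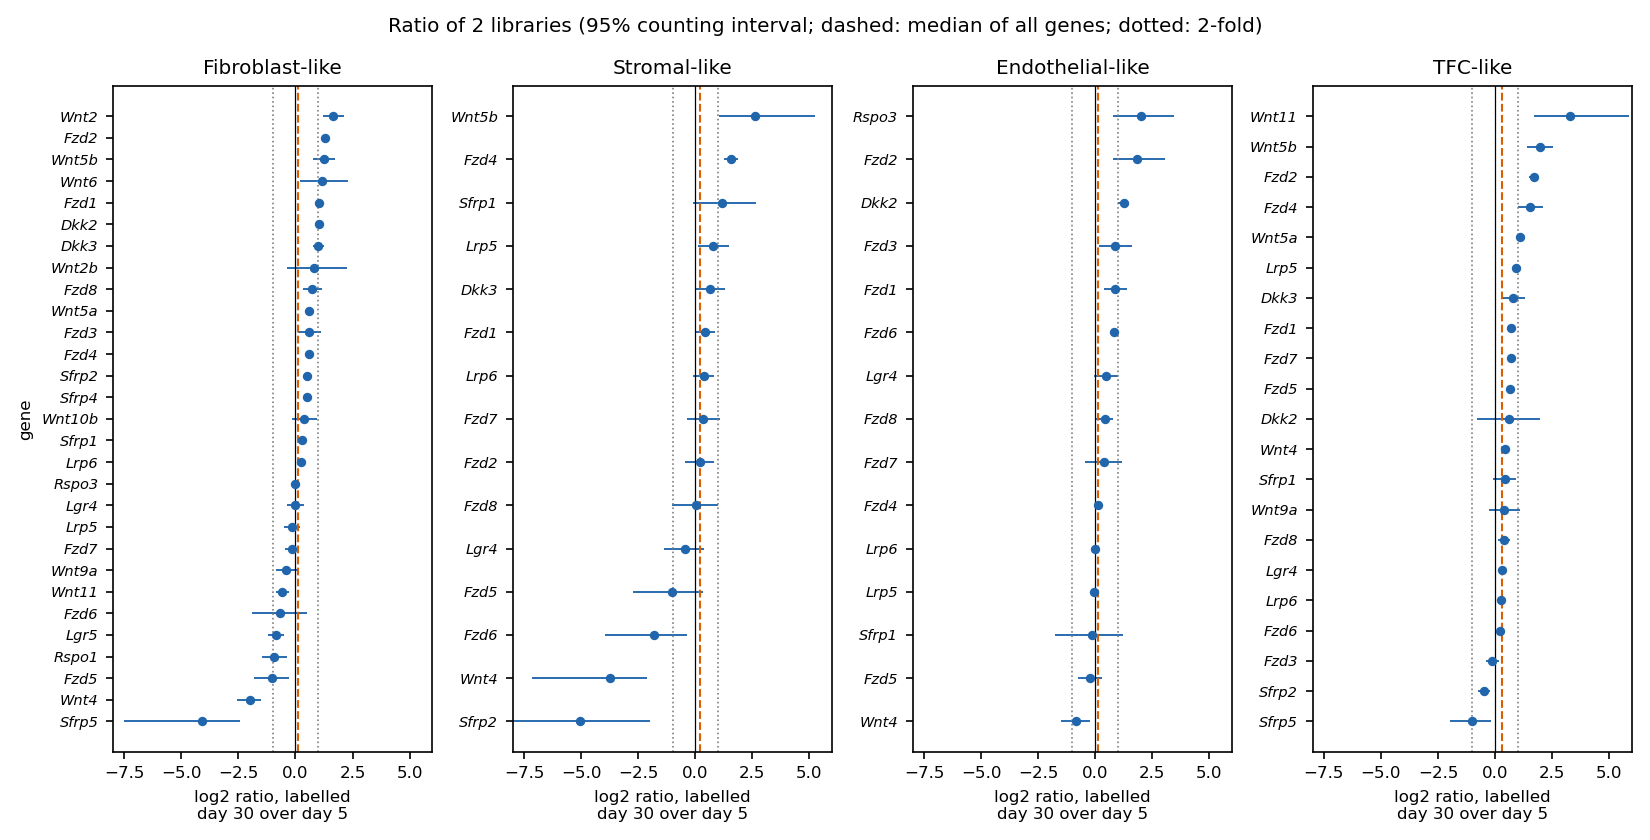
Log2 ratio of the CPM in the library labelled day 30 over that labelled day 5 (horizontal axes) for the members with at least 20 UMIs in both together, in 4 classes. Bars are 95% counting intervals, dashed lines the median of all genes and dotted lines 2-fold, and the interval of Sfrp2 in stromal-like cells has no lower end, as the library labelled day 30 had no UMI.

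Other genes of the pathway, taken from lists by role and not by how they moved, were set beside the members. Unlike the members, these genes were not kept out of the variable genes that set the clusters, so their calls are given as a description only. Of 26 intracellular components, all tested, 9 were called higher and 4 lower in fibroblast-like, 12 and 5 in endothelial-like, 10 and 3 in stromal-like, and 9 and 5 in TFC-like cells. Their median log2 fold changes were 0.25, 0.29, 0.25 and 0.16 against 0.15, 0.10, 0.07 and 0.08 over all genes. Of all genes tested 36.3%, 32.4%, 25.1% and 35.2% were called higher in these 4 classes and 16.5%, 15.2%, 14.9% and 19.1% lower, so the 9 of 26 in fibroblast- and TFC-like cells were close to the share of all genes. The β-catenin partner Lef1 was lower in TFC-like cells (log2 fold change -2.50 ± 0.44 SE, adjusted p = 3.6e-06). The corepressor gene Tle2 (log2 fold change 1.91 ± 0.20 SE, adjusted p = 2.4e-11) and Tcf7l1 (log2 fold change 1.89 ± 0.29 SE, adjusted p = 2.7e-07) were higher. Tcf7l1 was also higher in endothelial-like (log2 fold change 3.76 ± 0.24 SE, adjusted p = 1.6e-18) and fibroblast-like cells (log2 fold change 3.72 ± 0.24 SE, adjusted p = 2.6e-18). The same held in stromal-like cells (log2 fold change 3.08 ± 0.33 SE, adjusted p = 5.6e-11).

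Of 26 other secreted and membrane components, 18 were tested, with 13 higher and 0 lower calls in TFC-like cells (median 1.97), 14 and 0 in fibroblast-like (median 3.21), 12 and 0 in stromal-like (median 2.41) and 9 and 3 in endothelial-like cells (median 0.85). All genes had medians of 0.08, 0.15, 0.07 and 0.10 in this order, with 35.2%, 36.3%, 25.1% and 32.4% called higher. Sostdc1, a secreted Wnt and BMP antagonist, was at 47.6, 62.7, 44 and 66.02 CPM in TFC-like cells (log2 fold change 5.62 ± 0.36 SE, adjusted p = 1.7e-17). The feedback ubiquitin ligase Rnf43, which removes Frizzled receptors and is held off by R-spondins, was at 10.04, 10.2, 9.53 and 10.6 CPM there (log2 fold change 4.04 ± 0.52 SE, adjusted p = 9.5e-09). Sostdc1 and Rnf43 may have passed the filter on low counts only through TFC-like cells, so their p-values are a description only. Genes that passed only through a class where they are high had to differ, so counts in the pathway lists are likewise a description. Tspan12, the partner of Fzd4 in norrin signalling, was higher in endothelial-like cells (log2 fold change 4.88 ± 0.21 SE, adjusted p = 1.9e-25), at 177, 244, 224 and 222 CPM. Stromal-like cells also had a higher call of Tspan12 (log2 fold change 4.39 ± 0.26 SE, adjusted p = 4.7e-20). In fibroblast-like cells the largest fitted fold changes were those of Cthrc1, Ror1 and Gpc3 (log2 fold changes of 7.03, 6.96 and 6.34).

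Of 22 usual target and feedback genes, counted without the members Dkk1 and Lgr5, 19 were tested, with 10 higher and 3 lower calls in TFC-like cells (median 1.00), 11 and 2 in fibroblast-like (median 1.76), 9 and 0 in stromal-like (median 0.90) and 6 and 4 in endothelial-like cells (median 0.20). The medians and shares of all genes are those of the list before, with 19.1%, 16.5%, 14.9% and 15.2% of all genes called lower. The medians of the lists rest in part on the count that edgeR adds. Rnf43, Znrf3 and Apcdd1 are in this list and in that of other secreted and membrane components, so their calls count in both. In TFC-like cells Ccn4, a secreted matrix protein, was at 102, 93.3, 116 and 59.1 CPM (log2 fold change 4.92 ± 0.34 SE, adjusted p = 4.0e-17). Dact2, which binds Dishevelled, was higher as well (log2 fold change 3.68 ± 0.58 SE, adjusted p = 8.1e-07). The 3 lower calls were Lef1, Tcf7 (log2 fold change -0.89 ± 0.38 SE, adjusted p = 0.043) and Bambi (log2 fold change -0.86 ± 0.23 SE, adjusted p = 0.0012), of which Lef1 and Tcf7 are also among the intracellular components. Among the feedback genes Nkd1 was at 69.9, 61.6, 65.3 and 76.1 CPM and was called higher (log2 fold change 3.46 ± 0.21 SE, adjusted p = 7.9e-20), as was Znrf3 (log2 fold change 1.56 ± 0.26 SE, adjusted p = 1.4e-06). Axin2, often used as a readout of β-catenin, was at 2.27, 5.25, 3.78 and 5.42 CPM and did not pass the test in TFC-like cells (log2 fold change 0.23 ± 0.24 SE, adjusted p = 0.47). Nkd1, Znrf3 and Axin2 were named after their values were seen. Between adventitial and other fibroblast-like cells 2 targets were higher and 8 lower of 16 tested (median -0.62, all genes -0.02), against 9.9% and 10.2% of all genes.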

How the data were processed

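Thyroid cells were sequenced by 10x Genomics 3′ chemistry in 4 libraries, 1 for each labelled age. The study's methods name more than 1 kit version and do not say which library had which, so a difference in chemistry between libraries could not be told. Kept cells of the libraries labelled day 5, 10, 20 and 30 had medians of 3444, 6050, 3025 and 7056 UMIs. The authors ran CellRanger on mm10, and the deposited unfiltered matrices held raw UMI counts per gene and droplet. A deposited table of all libraries listed the barcodes the authors took as cells, by a rule not given in the sources used here. A listed barcode went to the library in which it had the most UMIs.

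Cells with at least 200 UMIs, at most 10% mitochondrial and at most 5% hemoglobin UMIs were kept. Scrublet called 8.84% of cells in the library labelled day 5 and almost none elsewhere, so 6% of cells, those scoring highest, were dropped from every library. Cells were clustered in scanpy 1.11.5 (3000 variable genes, 30 principal components, Leiden resolution 0.9), without the upper limit of 10000 UMIs and the integration of the study's methods. Clusters were named for the best-scoring marker list if at least 3 markers were detected and no other list came within 0.5, details settled after clusters were seen. The members and gene lists were chosen with earlier results of these data known. Values in every library were given for the 4 members of each role with the highest class level, without those under 20 UMIs in all kept cells, and for every member called in TFC-like cells.

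UMIs were summed per class and library with at least 20 cells, giving 58 sums of 66002 to 25986299 UMIs in 15 classes, and CPM were not corrected for transcript length. Sums were tested with edgeR 4.0.16 (R 4.3.3, TMM, quasi-likelihood, library as block, Benjamini-Hochberg), first tested on simulated data. Each SE given is the size of the log2 fold change divided by the square root of the F statistic, and not a standard error taken from the fit. The p-values measure the spread of the sums left after class and library effects, over libraries that differ in labelled age. They do not measure the spread between animals. Ratios between 2 libraries used a pseudocount of 0.5 UMIs, a minimum of 20 UMIs in both together and exact 95% intervals, and a count of 0 was set against a floor of 3 UMIs. Intervals and floors cover counting error only. Alternatives were DESeq2 1.42.0, other size factors, no filter, no library term, each library left out, other limits on cells (the 10000 UMI limit included), doublets kept, each library clustered by itself, and integration with Seurat 5.3.0.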

Additional observations from a re-analysis of the deposited data

Results flagged for a closer look

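Of 28 members with levels in all 4 libraries that were looked at for 1 value far from the other 3, 2 stood out in 1 class each, with a gap to the nearest value that exceeded Dixon's 95% limit for 4 values. Dkk3 in fibroblast-like cells was low in the library labelled day 5, at 29.0 CPM against 54.2 to 58.4 CPM in the other 3, a gap of 0.858 of the range. Lrp5 in endothelial-like cells was high in the library labelled day 20, at 101.8 CPM against 59.4 to 61.5 CPM in the other 3, a gap of 0.951 of the range. Chance flags about 1 in 20 such sets of values.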

How the results depend on the processing

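Of 186 recomputed counts of members, 150 stayed within 1.5 times the value reported and 36 did not, and of the recomputed values of single members 1478 kept their direction and their side of the threshold, 59 fell below it, 59 rose past it and 2 reversed, with the cause not tested in each. The reversed values were the log2 fold change of Wnt4, 0.042 in fibroblast-like cells with doublets kept and 0.075 in endothelial-like cells after integration with Seurat, both classes in which Wnt4 lay below free RNA. Without a filter on low counts 31 members were higher in fibroblast-like and 9 in adventitial cells, where more genes were tested. DESeq2 called 14 lower in endothelial-like and 6 lower in TFC-like cells. Without the library term 1 was lower in fibroblast-like and 3 in adventitial cells. With at most 10000 UMIs per cell, 1 was lower in fibroblast-like, 2 in stromal-like, 1 in TFC-like and 5 in adventitial cells, and the members past 2-fold between the libraries labelled day 30 and 5 became 2 lower in stromal-like, 1 higher and 1 lower in endothelial-like, and 2 higher and 2 lower in TFC-like cells. With at most 5% mitochondrial UMIs, 2 were lower in stromal-like and 1 in TFC-like cells, and 0 in either class was past 2-fold lower. With doublets kept 2, and after integration 1, were lower in stromal-like cells. With at least 50 UMIs, 1 was 2-fold higher and 0 lower in stromal-like and 1 higher in endothelial-like cells. Centring on the median of all genes left 4 members 2-fold higher in fibroblast-like cells, and a pseudocount of 2 or at least 1000 UMIs per cell left 0 lower in TFC-like cells. With 1 library left out, the lower calls ranged from 1 to 2 in fibroblast-like, 0 to 2 in stromal-like, 2 to 4 in endothelial-like and 0 to 2 in TFC-like cells, and the adventitial calls from 3 to 6 higher and 7 to 8 lower. No paired analysis was possible because each age had 1 library, so ages share no replicate numbers to pair, and the class tests already had the library as block. The smallest sum tested was that of nerve-like cells labelled day 20, with 66002 UMIs.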
